A study of Mus musculus with 12 samples.

Results

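The samples are cells sorted from mouse kidney and labelled as glomerular endothelial cells (GEC). The transcripts described here are 10 genes of the circadian clock and its output, Arntl, Clock, Per1, Per2, Per3, Ciart, Nr1d1, Nr1d2, Dbp and Usp2. They were taken by gene name out of 19564 genes listed in either of the 2 deposited count tables, and all 10 were listed in both. The genes were chosen by name with the AS and WT values of these same libraries already known, so their AS over WT values are given below as a description, and nothing is read from the calls counted among them. The comparison of the 2 subpopulations was tested.

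RNA-seq was performed on GEC of 3 wild type (WT) and 3 Alport syndrome (AS) mice, all on the C57BL/6 strain and 4 months old. The AS mice are labelled Col4a5 -/- (allele Col4a5tm1Yseg), lack a collagen IV chain of the glomerular basement membrane and develop progressive renal failure. WT and AS mice alike carried Tek-cre, which is driven by an endothelial promoter, and a tdTomato reporter, and cells of the isolated glomeruli were sorted by tdTomato signal into a dimtdT and a brighttdT subpopulation. Each mouse gave 1 dimtdT and 1 brighttdT library, which makes 12 libraries in 4 groups of 3, and each mouse is called below by its genotype and number. The sources used here do not state the time of day at which tissue was taken from each mouse.

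The mammalian clock is a feedback loop of transcription present in most cells. Arntl (also called Bmal1) and Clock form an activator that binds E-box sequences and switches on the Per and Cry genes, whose proteins then block the activator. The same activator drives the nuclear receptors Nr1d1 and Nr1d2 (Rev-erb alpha and beta), which repress Arntl through ROR elements, and Dbp, a PAR bZIP factor that acts on D-boxes. Dbp and Arntl transcripts therefore peak at opposite times of day in most tissues, the kidney included, where many transporters follow the clock.

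To show where these genes carry the elements of that loop, promoters of 250 bases before to 50 bases after the start site were searched on both strands for the E-box CACGTG, the D-box TTATGTAA and the ROR element cores TAGGTCA and TGGGTCA. RefSeq promoters on GRCm38.p6 were available for 9 of the 10 genes, 13 promoters in all, with no entry for Per2. The stretches before the start site that hold a match follow, each 5′ to 3′ on the strand of its gene, with the match in capitals. Ciart is shown for its 3 E-boxes, Per1 for its E-box and Per3 for its 2 D-boxes.
Ciart, chr3:95882255-95882356, minus strand: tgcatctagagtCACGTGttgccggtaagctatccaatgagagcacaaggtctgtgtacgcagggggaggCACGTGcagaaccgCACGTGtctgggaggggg
Per1, chr11:69098771-69098800, plus strand: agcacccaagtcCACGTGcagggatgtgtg
Per3, chr4:151044804-151044882, minus strand: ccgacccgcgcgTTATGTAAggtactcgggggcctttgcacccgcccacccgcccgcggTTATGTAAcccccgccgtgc

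The E-boxes of Ciart began 116, 58 and 44 bases before the start site, the E-box of Per1 166 bases before it, and the D-boxes of Per3 205 and 158 bases before it. Arntl held TAGGTCA 31 bases after the start of 1 of its 2 promoters, and TGGGTCA was in none of the 13. Of all 32851 promoters of this length, 7.15% held the E-box, 0.938% the D-box, 2.61% TAGGTCA and 3.98% TGGGTCA. A match is a description of these letters in this window and not a binding site. The other promoters of these genes, those of Clock, Dbp, Usp2, Nr1d1 and Nr1d2 among them, held no match in the window.

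**Figure D1:**
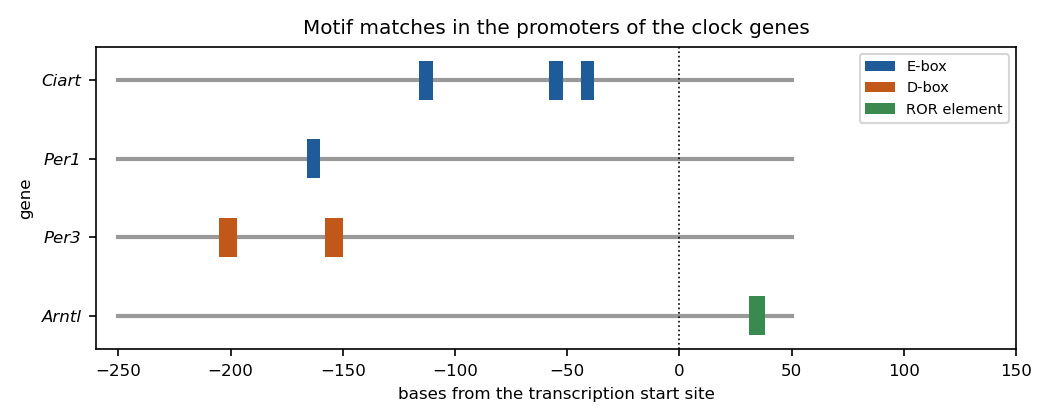
Positions of the motif matches along 4 promoters, with the distance from the transcription start site in bases on the x axis and the gene on the y axis. Grey lines are the 300 bases searched and coloured boxes the matches: Ciart has 3 E-boxes before its start, Per1 has 1, Per3 has 2 D-boxes, and the ROR element of Arntl lies after its start.

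Libraries held 11440169 to 15074909 counts on genes. Values are given as CPM, the counts on a gene scaled to a library of 1 fixed size, with the sizes of all 12 libraries adjusted by edgeR's TMM method. Col4a5 was counted 771, 439 and 877 times in the WT and 51, 24 and 17 times in the AS dimtdT libraries, so every library labelled AS was below every library labelled WT. Endothelial and proximal tubule markers were also lower in AS dimtdT, as given below, and their part in the Col4a5 counts was not tested. In the brighttdT libraries Col4a5 overlapped, with WT libraries at 158, 69 and 78 counts and AS libraries at 43, 104 and 55. It gave no check of those labels. Tek, whose promoter drives the Cre and is also known to be active in part of the blood lineage, was at 136 to 272 CPM in the brighttdT and at 2.31 to 19.6 CPM in the dimtdT libraries. The 14 endothelial markers summed to 10865 to 19139 CPM in the brighttdT libraries, to 753 to 1374 CPM in WT dimtdT and to 233 to 321 CPM in AS dimtdT. The 20 leukocyte markers ran the other way, at 8466 to 19330 CPM in the dimtdT against 59.1 to 147 CPM in the brighttdT libraries, where Cd3e, Cd3g, Cd4, Nkg7, Klrb1c, Itgam and Itgax were at 0 or not listed. The mesangial and mural markers summed to 452 to 917 CPM in the brighttdT, 122 to 211 CPM in the WT dimtdT and 60 to 109 CPM in the AS dimtdT libraries, and 7 of 7 tested were higher in brighttdT in both genotypes, 4 called in WT and 7 in AS (median log2 fold changes 2.42 and 3.13). Of 12 proximal tubule markers 11 were lower in brighttdT in WT, with 0 called (median -1.25), and in AS 7 of 11 tested were higher, with 2 called (median 0.45). Of 8 podocyte markers 5 were called as lower and 1 as higher in brighttdT in WT (median -1.60), and 2 as lower and 5 as higher in AS (median 0.77). The dimtdT libraries thus held more leukocyte than endothelial marker RNA, and GEC is kept for them below only as the name on the labels. This marker shift moves with every difference between the subpopulations given below, so none of these is shown to lie within endothelial cells. It also moved with genotype in the dimtdT GEC: the leukocyte markers summed to 8466 to 14784 CPM in WT and 16301 to 19330 CPM in AS, with 18 of 20 higher and 3 called (median log2 fold change 0.53), and 13 of 13 endothelial markers tested were lower, 9 of them called (median -2.22). Its part in the differences was not tested. In bulk RNA, fewer cells of a type and less RNA per cell cannot be told apart.

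Of the 10 genes, Nr1d1, Nr1d2, Clock and Arntl passed the test as higher in the brighttdT than in the dimtdT GEC in WT and again in AS, and Usp2 passed it as lower in both genotypes. Per3 was higher in WT and not called in AS, Dbp was higher in AS and not called in WT, and Per1 was lower in AS and not called in WT, where no test was made of the difference between the genotypes. Per2 and Ciart passed in neither. In WT, 5 of the 10 genes were called as higher and 1 as lower, where 13.8% of the 14247 genes tested were called as higher and 11.5% as lower. In AS, 5 were called as higher and 2 as lower, against 28.6% and 26.5% of 14052 genes. A call is an adjusted p under 0.05, from the quasi-likelihood test of edgeR and adjusted by Benjamini and Hochberg's method across every gene tested, and log2 fold changes below are brighttdT over dimtdT unless AS over WT is stated. The brighttdT libraries of 6 genes lay wholly above and those of 1 gene wholly below the dimtdT libraries in WT, as did 22.2% and 19.7% of all genes, and 5 and 2 genes did so in AS, against 31.9% and 30.5%. The median log2 fold change of the 10 genes was 1.24 in WT and 0.60 in AS, beside -0.04 and 0.02 over all genes.

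**Figure D2:**
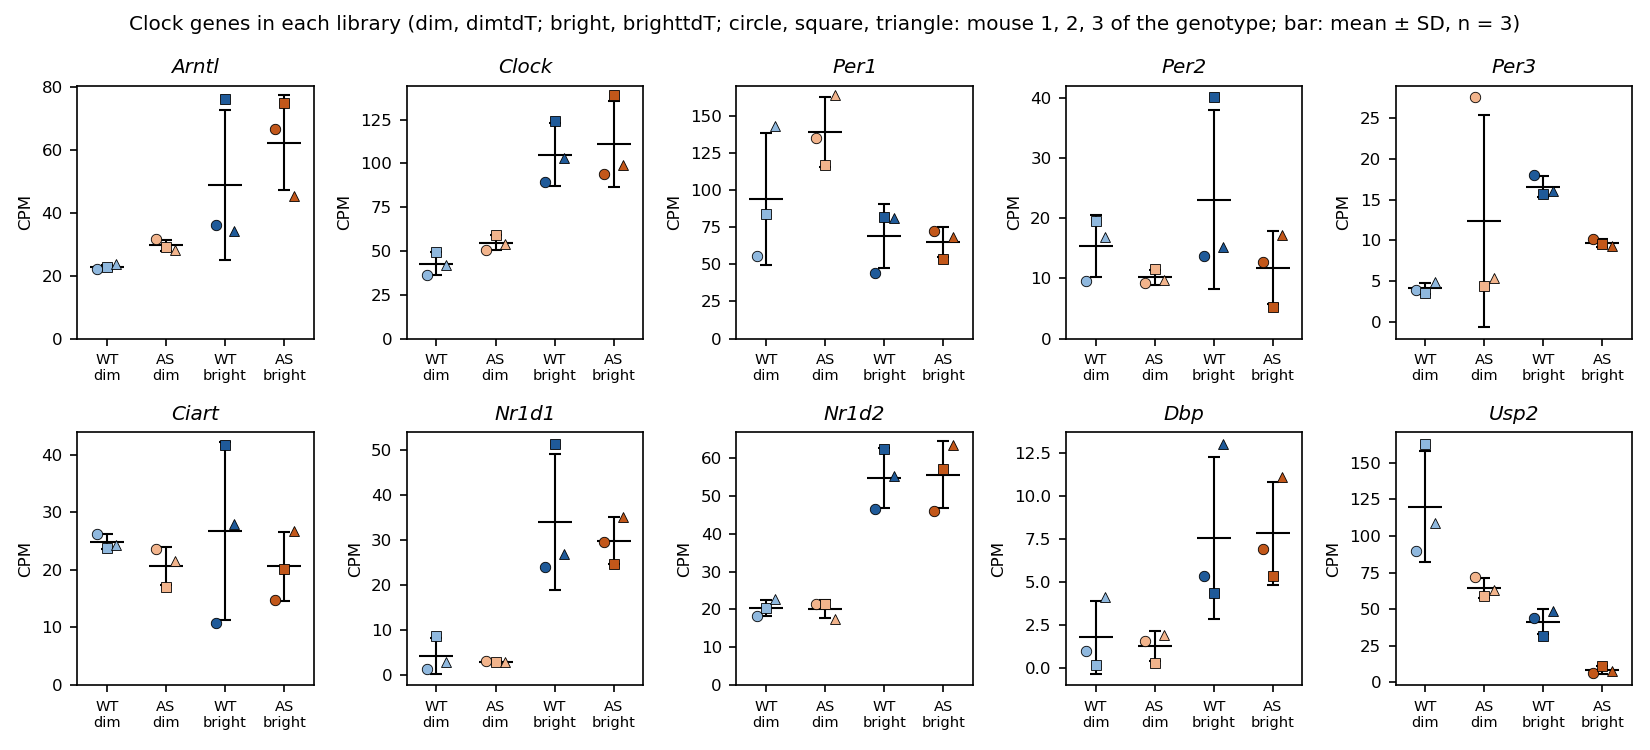
CPM of each clock gene (y axis, one panel a gene, linear scale) in the 4 groups (x axis), with a symbol for each mouse and bars for the mean ± SD of 3 libraries. Nr1d1, Nr1d2, Clock and Arntl are higher in every brighttdT than in every dimtdT library of the same genotype, Usp2 is lower, and the Per3 value of 27.5 CPM in AS mouse 1 dimtdT stands apart from the other dimtdT libraries.

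Arntl (chromosome 7, 113207465 to 113314126, plus strand of GRCm38) encodes the activator without which mice lose their daily rhythm. It was at 22.0, 22.6 and 23.6 CPM in the dimtdT libraries of WT mice 1, 2 and 3 and at 36.2, 76.2 and 34.1 CPM in their brighttdT libraries. In AS it was at 31.7, 29.1 and 28.2 CPM in the dimtdT and at 66.7, 74.8 and 45.4 CPM in the brighttdT libraries. The dimtdT libraries were tight within each genotype, whereas the brighttdT library of WT mouse 2 was far above the other 2. BrighttdT over dimtdT, the log2 fold change was 1.14 (SE 0.37, adjusted p = 0.0497) in WT and 1.06 (SE 0.23, adjusted p = 0.00267) in AS. The WT call lies at the threshold. It was lost in 10 of 13 alternatives, among them each of the 6 fits that left out 1 WT library, with log2 fold changes of 0.70 (without WT-bright replicate 2) to 1.35 and adjusted p from 0.0287 to 0.19 over all 13. For AS over WT, every AS dimtdT library was above every WT one, at a log2 fold change of 0.35 (SE 0.24), and the brighttdT libraries overlapped at 0.30 (SE 0.33), which ranged from 0.07 without WT-bright replicate 3 to 0.74 without WT-bright replicate 2.

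Clock (chromosome 5, 76209868 to 76304792, minus strand) is the partner of Arntl in the activator. In WT it was at 36.2, 49.4 and 42.2 CPM in the dimtdT and at 89.1, 124 and 103 CPM in the brighttdT libraries. In AS it was at 50.6, 59.0 and 54.0 CPM in the dimtdT and at 94.1, 139 and 99.2 CPM in the brighttdT libraries. No brighttdT library overlapped a dimtdT library, and the log2 fold change was 1.35 (SE 0.26, adjusted p = 0.0051) in WT and 1.02 (SE 0.20, adjusted p = 0.00191) in AS, called in all 13 alternatives in both. AS over WT was 0.32 (SE 0.22) in the dimtdT and 0.01 (SE 0.23) in the brighttdT GEC, where the groups overlapped. The brighttdT value ranged from -0.19 without AS-bright replicate 2 to 0.12 without WT-bright replicate 2.

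Among the repressors, Per1 (chromosome 11, 69095217 to 69109960, plus strand), which also answers within minutes to stress and glucocorticoid signals, was the one gene beside Usp2 with higher means in the dimtdT GEC in both genotypes. In WT it was at 55.3, 83.9 and 143 CPM in the dimtdT and at 44.4, 82.0 and 81.1 CPM in the brighttdT libraries, and these overlapped. In AS it was at 135, 117 and 164 CPM in the dimtdT and at 72.6, 53.5 and 68.4 CPM in the brighttdT libraries, which did not. The log2 fold change was -1.11 (SE 0.20, adjusted p = 0.000867) in AS, called in all 13 alternatives, and -0.41 (SE 0.39, adjusted p = 0.475) in WT, where it ranged from -0.69 without WT-dim replicate 1 to 0.04 without WT-dim replicate 3. AS over WT was 0.53 (SE 0.33) in the dimtdT GEC, between 0.27 without WT-dim replicate 1 and 0.96 without WT-dim replicate 3, and -0.16 (SE 0.26) in the brighttdT GEC, between -0.37 without WT-bright replicate 1 and -0.03 without AS-bright replicate 2. Both pairs of groups overlapped.

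Per2 (chromosome 1, 91415982 to 91459324, minus strand) is a core repressor of the loop. Its brighttdT libraries held 13.8, 40.3 and 15.3 CPM in WT and 12.8, 5.22 and 17.3 CPM in AS, and its dimtdT libraries 9.65 to 19.5 CPM in WT and 9.26 to 11.6 CPM in AS. The subpopulations overlapped in both genotypes, with log2 fold changes of 0.61 (SE 0.50, adjusted p = 0.402) in WT and 0.18 (SE 0.40, adjusted p = 0.722) in AS. AS over WT was -0.62 (SE 0.37) in the dimtdT and -1.04 (SE 0.49) in the brighttdT GEC, both with overlap, and the brighttdT value was -0.41 without WT-bright replicate 2 and -1.44 without AS-bright replicate 3.

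Per3 (chromosome 4, 151003652 to 151044665, minus strand) is the Per paralog that the loop can do without, and the gene of this set with D-boxes in its promoter. It lies within Camta1 on the same strand, with no exon shared. In WT it was at 3.95, 3.55 and 4.89 CPM in the dimtdT and at 18, 15.7 and 16 CPM in the brighttdT libraries, a log2 fold change of 2.06 (SE 0.41, adjusted p = 0.00627) that was called in all 13 alternatives. In AS the brighttdT libraries held 10.2, 9.53 and 9.32 CPM and the dimtdT libraries 27.5, 4.48 and 5.35 CPM. The value of AS mouse 1 rests on 389 counts, where the other dimtdT libraries had 42 to 67, and Camta1 did not stand apart in that library, at 176 counts against 140 to 404 in the others. With that library the log2 fold change in AS was -0.40 (SE 0.59, adjusted p = 0.599), and without AS-dim replicate 1 it was 0.97 (SE 0.33, adjusted p = 0.0402). AS over WT in the dimtdT GEC was 1.58 (SE 0.76) with it and 0.19 without it. In the brighttdT GEC the 3 AS libraries were all below the 3 WT libraries and each group was tight, at 9.68 ± 0.46 (SD, n = 3) against 16.6 ± 1.24 CPM (SD, n = 3), and the log2 fold change was -0.85 (SE 0.29), between -0.91 and -0.75 in all 13 alternatives.

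Ciart (chromosome 3, 95878503 to 95882251, minus strand), a repressor of the Arntl and Clock complex and the gene with 3 E-boxes, spread widely between mice in the brighttdT GEC. It was at 10.8, 41.7 and 27.9 CPM in WT and at 14.8, 20.1 and 26.8 CPM in AS brighttdT libraries, a 3.88-fold and a 1.81-fold range. In the dimtdT libraries it kept within 23.8 to 26.3 CPM in WT and 17.1 to 23.7 CPM in AS, where the 3 AS values were below the 3 WT values. The log2 fold change was 0.14 (SE 0.45, adjusted p = 0.849) in WT and -0.02 (SE 0.27, adjusted p = 0.944) in AS. AS over WT was -0.29 (SE 0.27) in the dimtdT and -0.43 (SE 0.42) in the brighttdT GEC, the latter between -0.79 without WT-bright replicate 1 and 0.01 without WT-bright replicate 2. An antisense gene, C920021L13Rik, spans Ciart without sharing exon bases.

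Nr1d1 (chromosome 11, 98767932 to 98775333, minus strand), which represses Arntl and links the clock to lipid metabolism and inflammation, had the largest brighttdT over dimtdT log2 fold change of the 10 genes in both genotypes, except that Dbp was at 3.80 and Nr1d1 at 2.82 in WT without WT-dim replicate 3. In WT it was at 1.23, 8.62 and 2.78 CPM in the dimtdT and at 23.9, 51.3 and 26.8 CPM in the brighttdT libraries. In AS it was at 3.04, 2.82 and 2.79 CPM in the dimtdT and at 29.6, 24.7 and 35.0 CPM in the brighttdT libraries. WT mouse 2 had the highest WT value in both subpopulations, and even so the lowest brighttdT library was well above the highest dimtdT library. In the test it had a log2 fold change of 3.03 (SE 0.63, adjusted p = 0.00733) in WT, an 8.19-fold difference, and 3.35 (SE 0.28, adjusted p = 5.02e-06) in AS, a 10.2-fold difference, both called in all 13 alternatives. The WT value was 4.11 without WT-dim replicate 2 and 2.59 without WT-dim replicate 1. Thra, on the opposite strand, shares 263 exon bases with Nr1d1 (8.55% of its exon length), and the strand used for counting is not stated in the sources used here. Thra was also higher in the brighttdT GEC, by a log2 fold change of 1.92 (SE 0.42, adjusted p = 0.00988) in WT and 3.05 (SE 0.36, adjusted p = 5.33e-05) in AS. Its part in the Nr1d1 counts was not tested. AS over WT of Nr1d1 was -0.58 (SE 0.68) in the dimtdT GEC, which became 0.44 without WT-dim replicate 2 and -1.0 without WT-dim replicate 1, and -0.25 (SE 0.31) in the brighttdT GEC, which became 0.14 without WT-bright replicate 2. Both pairs of groups overlapped.

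Nr1d2 (chromosome 14, 18204054 to 18239127, minus strand), the paralog of Nr1d1, was also higher in the brighttdT GEC, by a smaller log2 fold change. It was at 18.2, 20.3 and 22.7 CPM in the WT dimtdT, at 46.5, 62.4 and 55.2 CPM in the WT brighttdT, at 21.4, 21.4 and 17.4 CPM in the AS dimtdT and at 46.0, 57.1 and 63.6 CPM in the AS brighttdT libraries. The log2 fold change was 1.46 in WT (SE 0.28, adjusted p = 0.00505) and 1.46 in AS (SE 0.21, adjusted p = 0.000238), called in all 13 alternatives in each. AS over WT was -0.06 (SE 0.27) in the dimtdT and -0.04 (SE 0.22) in the brighttdT GEC, and the groups overlapped in both. With a library left out these ran from -0.15 to 0.04 and from -0.16 to 0.06. No annotated gene overlaps Nr1d2.

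Of the output genes, Dbp (chromosome 7, 45705088 to 45710203, plus strand), whose transcript has one of the widest daily swings known, was low in the dimtdT GEC. Its dimtdT libraries held 11, 2 and 49 counts in the WT mice and 22, 3 and 24 in the AS mice, so that mouse 2 of each genotype was at 3 counts or fewer, the limit that a count of 0 allows. The brighttdT libraries of WT mice held 84, 61 and 197 counts and those of AS mice 95, 82 and 153, or 5.31, 4.35 and 13.0 CPM and 6.92, 5.35 and 11.1 CPM. Every brighttdT library was above every dimtdT library of its genotype. The log2 fold change was 2.6 in AS (SE 0.53, adjusted p = 0.00215, called in all 13 alternatives) and 2.14 in WT (SE 0.82, adjusted p = 0.0891). In WT it passed the test with the mouse as a replicate block (2.25, adjusted p = 0.0228), in edgeR's likelihood ratio test (adjusted p = 0.0422) and without WT-dim replicate 3 (3.80, adjusted p = 0.0256), while the value was 1.52 without WT-bright replicate 3, and adjusted p ran from 0.0228 to 0.285 over the 13 alternatives. AS over WT was -0.51 (SE 0.93) in the dimtdT GEC, from -1.10 without WT-dim replicate 2 to 1.12 without WT-dim replicate 3, and -0.04 (SE 0.48) in the brighttdT GEC, from -0.39 without AS-bright replicate 3 to 0.58 without WT-bright replicate 3. Sphk2 on the opposite strand shares 539 exon bases with Dbp, 18% of its exon length. Sphk2 had 67, 194 and 830 counts in the WT and 206, 257 and 257 counts in the AS dimtdT libraries, and its log2 fold change was -1.50 (adjusted p = 0.2) in WT and -0.84 (adjusted p = 0.018) in AS. Its part in the Dbp counts was not tested.

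Usp2 (chromosome 9, 44067021 to 44095627, plus strand), a deubiquitinase that is a rhythmic output gene in most tissues and acts on PER proteins and on sodium channels in the kidney, was the only one of the 10 genes called as lower in the brighttdT GEC in both genotypes. It was at 89.6, 163 and 109 CPM in the WT dimtdT and at 43.7, 31.8 and 48.9 CPM in the WT brighttdT libraries. In AS it was at 72.0, 58.9 and 62.8 CPM in the dimtdT and at 6.12, 11 and 7.79 CPM in the brighttdT libraries. The 4 groups did not overlap, from WT dimtdT at the top through AS dimtdT and WT brighttdT to AS brighttdT. The log2 fold change was -1.49 (SE 0.32, adjusted p = 0.00862) in WT and -2.96 (SE 0.25, adjusted p = 5.43e-06) in AS, called in all 13 alternatives in both. Gm49380 and Gm39325 on the opposite strand share 200 exon bases with Usp2, 4.15% of its exon length.

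**Figure D3:**
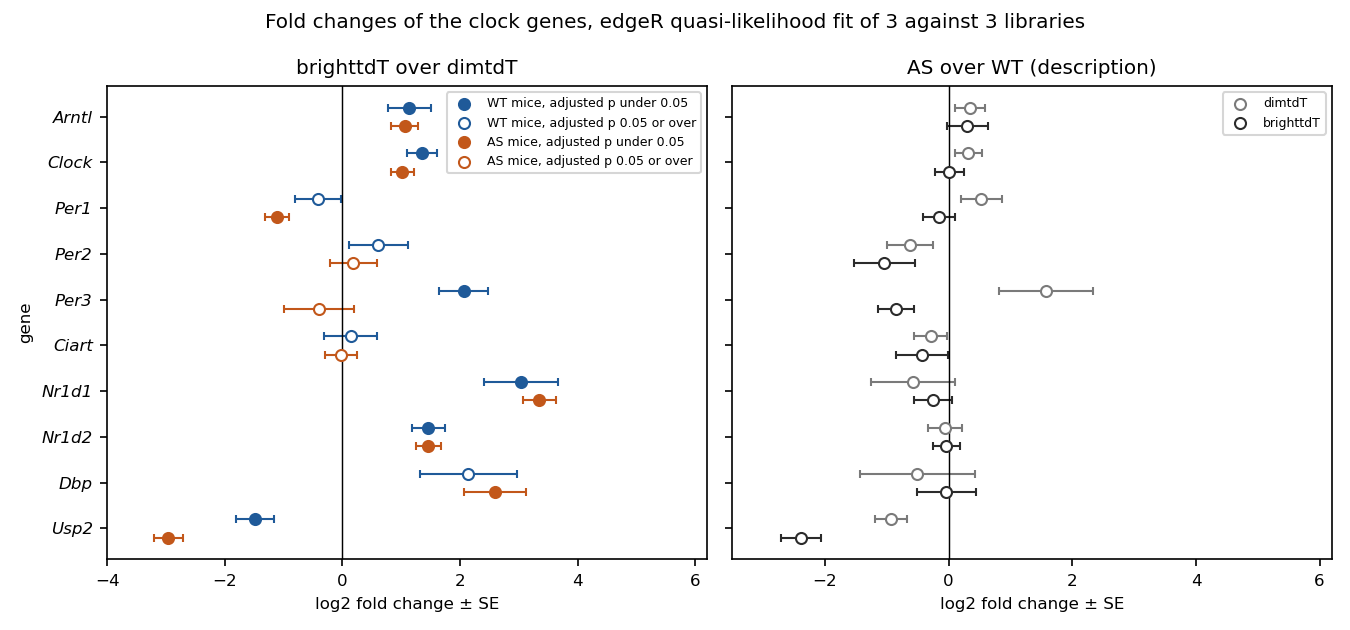
Log2 fold changes with standard errors (x axis) of each clock gene (y axis), on the left brighttdT over dimtdT in WT and AS mice and on the right AS over WT in each subpopulation, as a description. On the left, filled points have an adjusted p under 0.05, 6 genes in WT and 7 in AS. On the right all points are open, and the Usp2 value of -2.39 in the brighttdT GEC lies farthest from 0.

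The AS over WT values, which were in view when the genes were chosen, lay farthest from 0 for Usp2 in the brighttdT GEC and, with AS-dim replicate 1 included, for Per3 in the dimtdT GEC. In the brighttdT GEC Usp2 was at 8.29 ± 2.46 (SD, n = 3) CPM in AS against 41.4 ± 8.75 (SD, n = 3) in WT, a log2 fold change of -2.39 (SE 0.32) and a 5.24-fold difference, and in the dimtdT GEC at 64.6 ± 6.73 against 120 ± 38.0 CPM (SD, n = 3), a log2 fold change of -0.93 (SE 0.26) and a 1.91-fold difference. As counts only, since the choice of the genes used this contrast, 1 of the 10 was called as lower and 0 as higher in the brighttdT GEC, where these shares were 0.264% and 0.188% of all 14396 genes. In the dimtdT GEC 0 were called in either direction by edgeR's quasi-likelihood test, beside 6.42% lower and 2.21% higher of 14637 genes, 1 of the 10 (Usp2) was under an unadjusted p of 0.05, as were 26.3% of all genes, DESeq2 called 1 and the likelihood ratio test called 0. The AS libraries lay wholly below the WT libraries for Usp2 and Per3 in the brighttdT GEC and for Usp2 and Ciart in the dimtdT GEC, and wholly above them for Arntl in the dimtdT GEC and for no gene in the brighttdT GEC. Over all genes these shares were 10.9% below and 13.6% above in the brighttdT and 16.2% below and 15.0% above in the dimtdT GEC. The count in the brighttdT GEC was 0 without WT-bright replicate 3, without AS-bright replicate 1, without AS-bright replicate 3 and in edgeR's version 3 fit, settings in which 0 of all genes were called, while the log2 fold change of Usp2 stayed between -2.65 and -2.23 in 13 alternatives. The medians over the 10 genes were -0.17 in the dimtdT and -0.20 in the brighttdT GEC, beside -0.02 and -0.03 over all genes.

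The markers of the proximal tubule, the nephron segment that reabsorbs most of the filtrate, moved with genotype in the same direction as Usp2. All 12 were lower in AS in both subpopulations, 7 of them called in the dimtdT and 0 in the brighttdT GEC, with median log2 fold changes of -4.20 and -2.54. Their summed level was 6853, 1575 and 1573 CPM in the WT dimtdT and 43, 446 and 35 CPM in the AS dimtdT libraries, and 2876, 549 and 745 CPM in the WT brighttdT and 166, 642 and 166 CPM in the AS brighttdT libraries. Usp2, in the same order, was at 89.6, 163 and 109 CPM in WT dimtdT and 72.0, 58.9 and 62.8 CPM in AS dimtdT. In the brighttdT libraries it was at 43.7, 31.8 and 48.9 CPM in WT and 6.12, 11 and 7.79 CPM in AS. Gatm gave 93.6 and 113 CPM and Aqp1 45.1 and 29.3 CPM of the 166 CPM in AS brighttdT mice 1 and 3. Aqp1 overlapped between the genotypes there, at 39.9 to 50.2 CPM in WT and 29.3 to 45.1 CPM in AS brighttdT libraries. The podocyte markers summed to 999 to 1272 CPM in WT and 1411 to 1596 CPM in AS brighttdT libraries, and the mesangial and mural markers to 452 to 917 and 469 to 822 CPM. In the dimtdT GEC the podocyte markers had a median log2 fold change of -1.37 AS over WT, with 3 of 8 called as lower and 1 as higher, and 6 of 6 mesangial and mural markers tested were lower (median -0.99), beside the lower endothelial markers given above. The part of tubule and other cell RNA in the AS over WT difference of Usp2 was not tested.

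**Figure D4:**
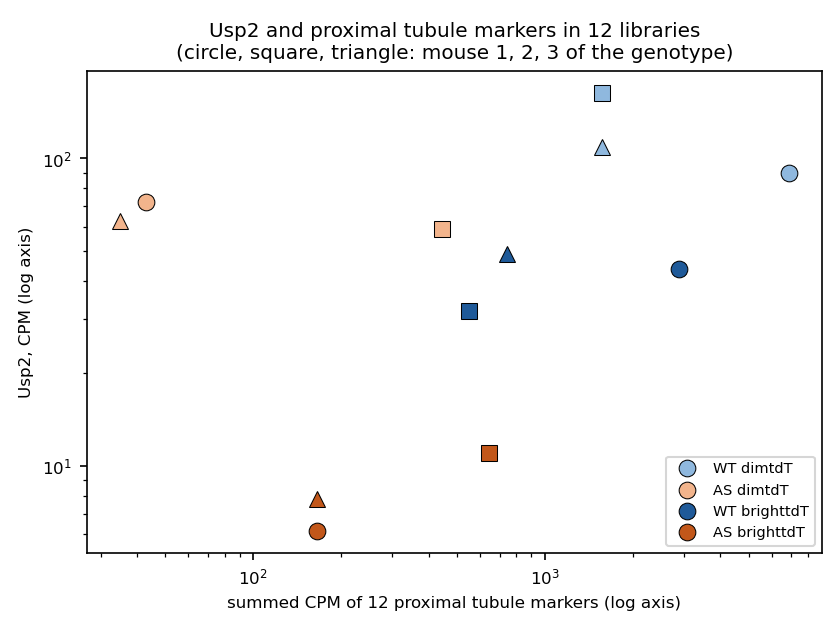
Usp2 in CPM (y axis, log scale) against the summed CPM of 12 proximal tubule markers (x axis, log scale) in the 12 libraries, coloured by group with a symbol for each mouse. The AS brighttdT libraries are lowest in Usp2, at marker sums of 166 to 642. In AS brighttdT mice 1 and 3, Gatm gave 93.6 and 113 CPM and Aqp1 45.1 and 29.3 CPM of the 166 CPM. The AS dimtdT libraries have sums of 35 to 446 and Usp2 of 58.9 to 72.0. The subpopulations also differ in leukocyte and endothelial markers.

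Levels were compared between genes as CPM per kilobase of merged exon length, since longer transcripts gather more reads. In WT dimtdT, Usp2 led with 25.0 ± 7.89 and Per1 followed with 16.7 ± 7.90 (CPM per kilobase, SD, n = 3), whereas Dbp was at 0.586 ± 0.700 and Per3 last at 0.43 ± 0.0717. Usp2 and Per1 overlapped, as did 8 of 9 neighbours in this order, all but Ciart above Nr1d2. In AS dimtdT, Per1 led with 24.7 ± 4.22 before Usp2 with 13.4 ± 1.40, with no overlap, and Dbp was last at 0.414 ± 0.293, with 4 of 9 neighbours overlapping. In WT brighttdT the order was Per1, Ciart, Nr1d1, Nr1d2, Usp2, Clock, Arntl, Per2, Dbp and Per3, from 12.3 ± 3.81 down to 1.73 ± 0.129, and each of the 9 pairs of neighbours in it overlapped. In AS brighttdT it was Per1, Nr1d2, Nr1d1, Ciart, Arntl, Clock, Dbp, Per2, Usp2 and Per3, from 11.5 ± 1.79 down to 1.01 ± 0.0479, and 7 of 9 neighbours overlapped, the exceptions being Clock above Dbp and Usp2 above Per3. By its mean, Usp2 was first of the 10 in WT dimtdT and ninth in AS brighttdT.

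Since both libraries of a mouse were taken from the same animal, the values of a mouse were set side by side. The log2 CPM of Dbp minus that of Arntl, on a scale with 2 counts added, was -4.32, -6.16 and -2.47 in the dimtdT and -2.73, -4.09 and -1.38 in the brighttdT libraries of WT mice 1, 2 and 3. In AS mice 1, 2 and 3 it was -4.22, -6.20 and -3.78 in the dimtdT and -3.24, -3.77 and -2.01 in the brighttdT libraries. The 3 mice of each genotype thus kept their order in both subpopulations, with mouse 3 highest and mouse 2 lowest, and the brighttdT library was higher in 6 of 6 mice. WT and AS mice overlapped. In dimtdT libraries this difference rests on the few Dbp counts given above.

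**Figure D5:**
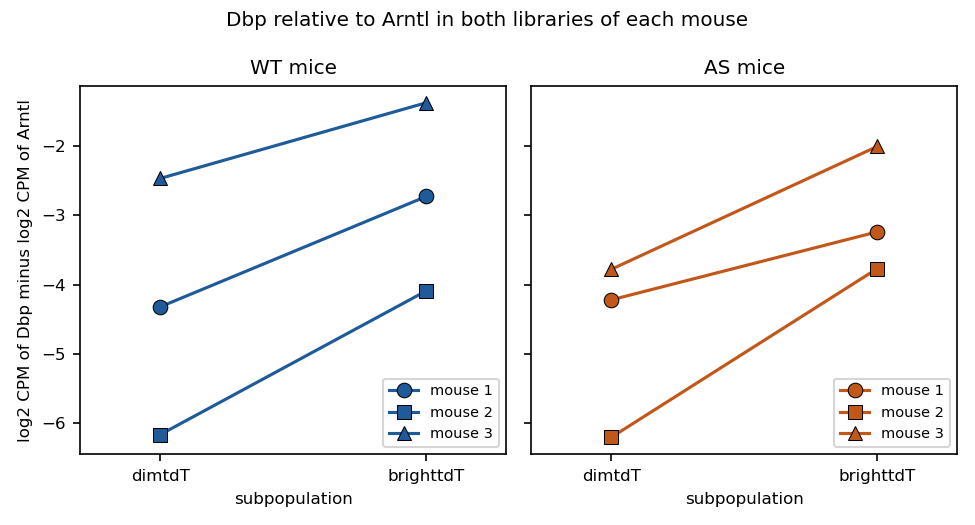
Log2 CPM of Dbp minus log2 CPM of Arntl (y axis) in the dimtdT and brighttdT library (x axis) of each WT mouse on the left and each AS mouse on the right, joined by a line for each mouse. The lines rise in all 6 mice and do not cross within a genotype, running from -6.20 at the lowest to -1.38 at the highest.

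Taken one at a time, the deviations of a gene from its group mean had the same sign in both libraries of a mouse in 6 of 6 mice for Clock, in 5 for Nr1d1 and Dbp, in 4 for Per1 and Per3, in 3 for Nr1d2 and Arntl, in 2 for Per2 and in 1 for Ciart and Usp2. These deviations sum to 0 within each group of 3 and are given as a description. For Clock some lay near 0, at -0.00 in dimtdT and -0.02 in brighttdT for WT mouse 3 and -0.01 in dimtdT for AS mouse 3. WT mouse 2, for example, was 1.42 above its group in dimtdT and 0.68 above it in brighttdT on the log2 scale for Nr1d1, while for Usp2 its deviations were 0.48 in dimtdT and -0.36 in brighttdT.

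The genes most like Dbp over the 12 libraries, by Pearson's r of log2 CPM after the mean of each subpopulation was subtracted and among 10567 genes with a mean log2 CPM above 1 in both, were AC154297.1 (0.913), Nt5c3 (0.911), Man2c1 (0.891), Dhrs7 (0.869) and Gm5552 (0.868), of which AC154297.1 and Gm5552 are processed pseudogenes. Those most like Arntl were Ap5z1 (0.920), Nbas (0.910), Wac (0.909), Cherp (0.908) and Cmip (0.897). None is a known core clock gene. The 12 libraries share 6 mice, and the highest of so many values of r is large by construction. Genotype was not subtracted, so r also holds the AS over WT differences that were in view when the genes were chosen. Among the 10 genes themselves, Arntl was most like Clock (0.64) and least like Usp2 (-0.55), and Dbp was most like Per1 (0.45) and least like Nr1d1 (-0.42). Between Dbp and Arntl r was -0.20.

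A list of 20 other clock genes was tested in the same fits. It too was chosen with earlier results of these data known, so its AS over WT calls are not independent evidence. AS over WT, Nfil3, a repressor that competes with Dbp for D-boxes, was the 1 of 16 tested in the dimtdT GEC that was called, at 205 to 306 CPM in AS against 102 to 124 CPM in WT (log2 fold change 1.02, SE 0.21, adjusted p = 0.0298). The leukocyte and endothelial marker sums given above moved with genotype in these same libraries, and their part in the Nfil3 value was not tested. The call ended without AS-dim replicate 1, where 0 of all genes were called, and without AS-dim replicate 3, where 0 were called as higher. In the brighttdT GEC 1 of 18 was called, Fbxl21, an F-box protein that acts on CRY. It was near the limit of detection in AS, at 0.0728 to 0.196 CPM against 1.58 to 1.92 CPM in WT. The counts were 2, 3 and 1 in AS and 25, 27 and 25 in WT. Fbxl21 passed the expression filter through the WT libraries alone, so its log2 fold change of -3.60 (SE 0.60, adjusted p = 0.0312) gives a direction only. The Fbxl21 call ended in the settings named for Usp2 above, in which 0 of all genes were called. The shares called over all genes were 2.21% higher and 6.42% lower in the dimtdT and 0.188% and 0.264% in the brighttdT GEC. Cry1, a core repressor, was at 17.6 to 22.7 CPM in AS and 3.67 to 14.0 CPM in WT brighttdT with no overlap but was not called (1.02, SE 0.41, adjusted p = 0.185). The median log2 fold change of the list was -0.11 in the dimtdT and -0.01 in the brighttdT GEC, near those of all genes.

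For brighttdT over dimtdT, 2 of 18 of these genes were called as higher and 1 as lower in WT, and 7 and 3 of 16 in AS, with medians of 0.29 and 0.39. The shares over all genes were 13.8% higher and 11.5% lower in WT and 28.6% and 26.5% in AS. Timeless, a replication fork protein related to a fly clock gene, was higher by a log2 fold change of 3.56 (SE 0.47, adjusted p = 0.000644) in WT and 4.64 (SE 0.23, adjusted p = 1.25e-07) in AS. Csnk1e, a kinase of the PER proteins, was higher by 0.97 in WT (SE 0.29, adjusted p = 0.0362) and 0.75 in AS (SE 0.21, adjusted p = 0.013). Nfil3 fell by 1.94 in WT (SE 0.27, adjusted p = 0.000757) and by 2.42 in AS (SE 0.23, adjusted p = 1.13e-05). The PAR bZIP paralogs of Dbp were called as higher in AS, Tef by 1.86 (SE 0.25, adjusted p = 0.000145) and Hlf by 2.64 (SE 0.66, adjusted p = 0.00646), but not in WT, at 0.93 (adjusted p = 0.128) and 0.43 (adjusted p = 0.592). Also called as higher in AS were Bhlhe40, a repressor at E-boxes, by 0.94, Btrc by 1.10 and Fbxw11 by 0.51. Btrc and Fbxw11 are of the ligase that degrades PER. Called as lower in AS were Cry1 by -0.78 and Fbxl21, whose value of -2.98 gives a direction only. Fbxl21 held 2, 3 and 1 counts in the AS brighttdT and 11, 22 and 12 in the AS dimtdT libraries. It passed the expression filter through the dimtdT libraries alone.

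Further genes of the list were not called in any comparison that tested them. Cry2 was at 4.65 to 16.5 CPM over the 12 libraries, with means of 10.6 to 11.8 CPM in the 4 groups. Npas2, which can stand in for Clock, was at 0 to 4.56 CPM in dimtdT and 0.197 to 1.07 CPM in brighttdT libraries. Bhlhe41, a repressor at E-boxes, was at 0.718 to 5.90 CPM in dimtdT and 1.89 to 6.55 CPM in brighttdT libraries.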

How the data were processed

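The authors trimmed the reads, aligned them with STAR 2.6.0c to GRCm38.p5, took gene models from Gencode M16 and deposited raw counts per gene in a table for each subpopulation. The deposited RPKM values were not tested. For 90.9% of 19530 genes the gene length behind them was within 1% of the summed exons of all transcripts. For Per1 it was 3.72 times the merged exon length. Merged exons of Gencode M21 on GRCm38 were therefore used for levels between genes. The columns of the authors' own comparisons (log2 fold changes, p-values) were not used.

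Counts on genes were 11440169 to 15074909 per library. The 92 ERCC rows of each table were left out. The 4 comparisons were tested with edgeR 4.0.16 in R 4.3.3 (TMM, filterByExpr, version 4 quasi-likelihood fit, Benjamini-Hochberg, threshold 0.05), 3 against 3 libraries, and tried on simulated counts. Subpopulations were compared on genes in both tables. Genes and lists were chosen with earlier results of these data known. Named besides the 10 genes were listed genes past the threshold and Cry1, Cry2, Npas2, Tef, Hlf, Bhlhe41 and Nfil3. 1 more gene that was to be named beside these is not reported here.

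Both libraries from a mouse are labelled with the same number. Deviations from group means correlated across genes at 0.0796 to 0.385 within a mouse and -0.286 to 0.189 between mice. Alternatives were RLE scaling, library sizes alone, no filter, DESeq2 1.42.0, a likelihood ratio test, each library left out, a replicate block and all 12 libraries in 1 fit. edgeR's version 3 fit was added after the data were seen.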

Additional observations from a re-analysis of the deposited data

How the results depend on the processing

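For AS over WT in the dimtdT GEC, 0 of the 10 genes were called in the main test and 1, Usp2, by DESeq2, in the fit of all 12 libraries and without WT-dim replicate 1 (0 to 1 with a library left out). All genes called numbered 1263, and 2221 by DESeq2, 2106 with all 12 libraries, 582 in edgeR's version 3 fit, chosen after seeing the data, and 0 to 1825 with a library left out, 0 without AS-dim replicate 1 and 1 without AS-dim replicate 3. In the brighttdT GEC, 1 of the 10 genes was called, 0 in the version 3 fit and 0 to 1 with a library left out. All genes called numbered 65, and 39 with no filter, 1117 by DESeq2, 897 by the likelihood ratio test, 0 in the version 3 fit, 139 with all 12 libraries and 0 to 281 with a library left out. The cause of these changes was not tested.

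For brighttdT over dimtdT, 5 to 7 genes were called in WT and 7 to 8 in AS, and no count of calls moved by over 1.5 times. With the mouse as a replicate block 7 were called in WT, Dbp added, and 7 in AS, and the block changed no other call among the 10 genes. Signs turned for uncalled genes only. With a library left out, the log2 fold change in WT ran from -0.69 to 0.04 for Per1, from -0.01 to 0.87 for Per2 and from -0.30 to 0.51 for Ciart, which was -0.00064 with the replicate block. In AS it ran from -0.19 to 0.50 for Per2, from -0.25 to 0.18 for Ciart and from -0.81 to 0.97 for Per3, which was then called. The values above 0 were, for Ciart, 0.09 without AS-dim replicate 1, 0.0024 without AS-dim replicate 3 and 0.18 without AS-bright replicate 1, and for Per3, 0.97 without AS-dim replicate 1. Low counts limit Dbp, Npas2 and Fbxl21, and with 3 libraries a group an exact permutation test cannot go below 0.1.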

Other observations

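Of 7 genes known as rhythmic in many tissues, 0 were called for AS over WT in either subpopulation by edgeR's quasi-likelihood test, with 0 in the dimtdT and 2 (Nampt and Tspan4) in the brighttdT GEC under an unadjusted p of 0.05, as were 26.3% and 21.8% of all genes tested. For brighttdT over dimtdT, Tspan4 was called as higher in both genotypes, by a log2 fold change of 3.54 in WT (SE 0.54, adjusted p = 0.00137) and 5.2 in AS (SE 0.44, adjusted p = 5.02e-06). In AS, Nampt, which makes the NAD precursor under clock control, was also higher (0.85, SE 0.26, adjusted p = 0.0185) and Klf10 lower (-0.92, SE 0.17, adjusted p = 0.00117). Of 5 glucocorticoid-induced genes, set beside the clock because the hormone is itself rhythmic, Klf9 was called as lower in AS in both subpopulations, at 65.5 to 96.7 CPM against 244 to 343 CPM in the dimtdT (log2 fold change -1.79, SE 0.23, adjusted p = 0.0172) and 338 to 415 against 749 to 968 CPM in the brighttdT GEC (-1.32, SE 0.21, adjusted p = 0.0345). Shares called as lower over all genes were 6.42% and 0.264%, and the list was chosen with earlier results of these data known. The calls ended where 0 of all genes were called. In the dimtdT GEC this was without AS-dim replicate 1. Without AS-dim replicate 3, 1 of all genes was called in the dimtdT GEC, and whether it was Klf9 is not given here. In the brighttdT GEC the call ended without WT-bright replicate 3, AS-bright replicate 1 or AS-bright replicate 3 and in edgeR's version 3 fit. The proximal tubule markers were also lower in AS in both subpopulations, 12 of 12 in each (median log2 fold changes -4.20 and -2.54), and in the dimtdT GEC the leukocyte markers were higher (median 0.53) and the endothelial markers lower (median -2.22). Their part in the Klf9 values was not tested. The others, Fkbp5, Tsc22d3, Sgk1 and Zbtb16, were called in neither. For brighttdT over dimtdT, Klf9 and Sgk1, a kinase of sodium transport, were higher in both genotypes and Tsc22d3 (Gilz) was lower in both. Zbtb16 was lower in AS, by a log2 fold change of -1.44 (SE 0.53, adjusted p = 0.0402), and not called in WT. Over all genes, 13.8% were called as higher and 11.5% as lower in WT, and 28.6% and 26.5% in AS.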
